A study of Homo sapiens with 12 samples.

Results

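The HOX genes of the 4 human clusters were described across insulin-treated HEK293E cells with and without the mTOR inhibitor Torin1. They were taken by symbol (HOX, a cluster letter from A to D and a number), which gave 39 of the 17520 genes in the expression table: 11 in HOXA, 10 in HOXB, 9 in HOXC and 9 in HOXD. HEK293E is an established line derived from human embryonic kidney, and all groups come from this 1 line. Every culture was kept overnight without serum and then received 200 nM insulin for 30 h. The comparison group had been pretreated with 250 nM Torin1, a compound that blocks the kinase of both mTOR complexes. Each condition had 3 input libraries of mRNA selected on poly(A) and 3 miCLIP libraries, in which an antibody against the methylated base m6A is crosslinked to RNA and leaves substitutions in the reads. The series calls the replicates biological. Whether they were grown as separate cultures is not said, and the p-values can speak only for the spread among these libraries, part of which may be technical. No insulin-free group was analysed here.

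HOX genes encode transcription factors that bind DNA through a homeodomain and give cells of the embryo their position along the head-to-tail axis. In each cluster the genes lie in order on the chromosome, all read from the same strand, with low paralogue numbers used earlier and closer to the head and high numbers later and closer to the tail. Genes of the same number in different clusters, called paralogues, arose by duplication and often act in the same structures: the genes numbered 11 are known for their role in the forming kidney, those numbered 13 for the end of the limb and the genital region. The clusters are a textbook target of Polycomb repression and of the opposing MLL methyltransferases, and retinoic acid turns on the genes of low number.

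The values of the expression table are the authors' normalized and rounded numbers, called normalized units here. They are not divided by transcript length, so levels are compared between conditions and not between genes. Library totals ran from 12424643 to 12528454 units with insulin and from 11418114 to 11438881 with Torin1. The worth of 1 read could be recovered from the spacing of low values in 3 libraries, which gave 7.32 M and 9.09 M reads for insulin replicates 1 and 2 and 8.2 M for insulin+Torin1 replicate 3. A gene was tested where it reached 10 units in at least 3 of the 6 libraries, and a gene was called where its limma p-value, adjusted over all 13842 tested genes, was under 0.05. Log2 fold changes are Torin1 against insulin on the log2(value + 1) scale, where low genes appear to change less than they do. In bulk RNA, fewer cells that use a gene and less RNA per cell cannot be told apart.

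Start regions are shown for 6 HOX genes whose levels moved in opposite directions: HOXD4, HOXD8 and HOXD3, which were higher with Torin1, and HOXA4, HOXA11 and HOXD10, which were lower. Each is the 250 bases that end just before an annotated start in RefSeq, GRCh38.p14, written 5′ to 3′ along the gene. The windows are chr2:176151300-176151549 (plus strand) for HOXD4, chr2:176129455-176129704 (plus) for HOXD8, chr2:176157057-176157306 (plus) for HOXD3, chr7:27130758-27131007 (minus) for HOXA4, chr7:27185233-27185482 (minus) for HOXA11 and chr2:176116528-176116777 (plus) for HOXD10. Capitals mark 3 motifs: the E-box CACGTG, the TALE motif TGACAG, known to be bound by TALE homeodomain proteins, and the GC box GGGCGG, which reads as CCGCCC where it lies on the other strand.
HOXD4: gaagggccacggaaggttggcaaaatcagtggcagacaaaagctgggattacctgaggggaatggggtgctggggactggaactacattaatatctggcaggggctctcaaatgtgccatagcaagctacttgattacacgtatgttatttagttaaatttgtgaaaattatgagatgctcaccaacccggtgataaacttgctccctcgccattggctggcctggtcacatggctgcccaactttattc
HOXD8: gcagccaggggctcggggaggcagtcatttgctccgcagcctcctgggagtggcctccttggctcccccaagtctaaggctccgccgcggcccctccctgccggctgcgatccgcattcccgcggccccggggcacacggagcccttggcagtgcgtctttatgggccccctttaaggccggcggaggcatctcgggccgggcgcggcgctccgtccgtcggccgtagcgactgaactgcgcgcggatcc
HOXD3: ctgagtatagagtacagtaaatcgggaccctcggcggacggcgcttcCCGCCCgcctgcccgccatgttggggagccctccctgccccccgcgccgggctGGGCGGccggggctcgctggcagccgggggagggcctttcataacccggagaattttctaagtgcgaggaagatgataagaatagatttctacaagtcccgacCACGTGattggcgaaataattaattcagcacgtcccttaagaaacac
HOXA4: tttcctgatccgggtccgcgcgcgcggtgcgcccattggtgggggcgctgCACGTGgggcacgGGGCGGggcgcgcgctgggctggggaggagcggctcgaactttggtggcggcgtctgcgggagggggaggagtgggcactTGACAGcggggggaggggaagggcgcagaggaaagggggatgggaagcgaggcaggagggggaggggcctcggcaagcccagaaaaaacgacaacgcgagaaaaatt
HOXA11: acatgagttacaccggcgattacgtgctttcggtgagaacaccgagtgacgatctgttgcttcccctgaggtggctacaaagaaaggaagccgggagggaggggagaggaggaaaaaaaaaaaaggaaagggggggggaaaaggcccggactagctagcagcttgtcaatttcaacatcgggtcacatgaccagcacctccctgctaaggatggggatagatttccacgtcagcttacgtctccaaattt
HOXD10: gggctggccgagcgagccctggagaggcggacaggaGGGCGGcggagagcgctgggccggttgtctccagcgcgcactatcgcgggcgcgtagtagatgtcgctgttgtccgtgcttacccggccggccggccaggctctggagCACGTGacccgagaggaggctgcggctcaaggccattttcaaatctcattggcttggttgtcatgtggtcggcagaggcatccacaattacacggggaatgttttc

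RefSeq start regions were at hand for 20 of the 39 HOX genes, with 27 entries in all, of which 7 belong to HOXA3. They are 26 distinct windows, since HOXC4 and HOXC5 share 1 that is counted for each. The E-box, which MYC and MAX and related proteins are known to bind and which reads the same on both strands, was in 8 of the 27 entries (29.6%), each of a different gene, against 6.34% of all 35116 entries of this length. Those genes were HOXA3, HOXA4, HOXA9, HOXD1, HOXD3, HOXD10, HOXD11 and HOXD13. With Torin1, 2 of these 8 genes were higher, 4 were lower and 2 were not called. Of the 12 genes without it, 6 were higher, 1 was lower, 2 were not called and 3 were not tested. Among all tested genes 43.4% were higher and 42.5% lower. Of the 4 lower genes with an E-box, HOXA3 and HOXD13 lost their calls with equal totals (limma adjusted p = 0.404 and 0.931). HOXA3 also had more windows in which a match could occur. Whether the motif goes with the direction was not tested. The other motifs, searched on both strands and with no motif contained in another, stood closer to all windows. The TATA box TATAAA was in 18.5% of HOX windows and 10.7% of all, the GC box in 48.1% and 42.6%, the HOX-PBX motif TGATNNAT in 11.1% and 6.47%, and the TALE motif in 7.41% and 13%. HOX windows held a median of 19 CpG dinucleotides against 11 over all windows, at a like median GC content of 58.8% and 58.0%. The HOXD4 window, with 4 CpG, and the HOXD8 window, with 28, show how far members of 1 cluster that both rose differed in this respect. A match is a run of letters, and nothing is said here about binding.

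Nearly all HOX genes were measurable in HEK293E cells. Of the 39 members 35 passed the filter on low values, and the 4 that did not were HOXB1, HOXC5, HOXC12 and HOXD12. HOXB1 was listed at 0, 3 and 0 units with insulin and 0 in all 3 libraries with Torin1. HOXC5 read 2, 1 and 4 against 5, 1 and 11. HOXC12 was at 0 in the 3 insulin libraries and at 1, 2 and 3 with Torin1, and HOXD12 lay at 5, 7 and 6 against 10, 9 and 6. In the libraries whose depth was recovered these values stand for at most 8 reads, so a change in these genes was not detectable at this depth. The summed value of all HOX genes was 11885 to 12400 units with insulin and 13770 to 14137 with Torin1, which is 0.0954% to 0.0998% and 0.12% to 0.124% of the library totals, with no overlap between the groups. By cluster the sums were 3213 to 3595 against 3897 to 4041 for HOXA and 4067 to 4367 against 5227 to 5429 for HOXB. For HOXC the sums overlapped, at 953 to 1054 against 1047 to 1088, and so did those of HOXD, at 3523 to 3652 against 3483 to 3605.

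With Torin1 22 HOX genes were higher, 8 were lower and 5 were not called, so 85.7% of the 35 tested members were called. The background was 86.0% of all tested genes, 43.4% higher and 42.5% lower, so the share of HOX genes called is that of the table as a whole. The 2 groups of libraries did not overlap for 30 of the 35, against 86.3% of all tested genes. A change beyond 1.5-fold, tested with limma's treat, was found for 9 members (25.7%), against 47.5% of all tested genes: 7 were higher (25.0% of all genes were) and 2 were lower (22.5% of all). The median log2 fold change was 0.30 in HOX genes and 0.02 over all tested genes. The median size of the change, regardless of direction, was 0.39 in HOX genes and 0.74 over all genes, and 6 HOX genes (17.1%) passed a log2 change of 1 in either direction, against 37.1% of all. HOX transcripts thus moved by less than the typical tested gene and rose more often than they fell, counts that describe this list and carry no test. Scaling the libraries to equal totals lifted the median of all genes from 0.02 to 0.15, and the HOX calls were then 23 higher and 6 lower, beside 48.5% and 38.1% of all tested genes. With quantile normalization they were 17 higher and 7 lower, beside 42.5% and 42.9% of all.

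**Figure D1:**
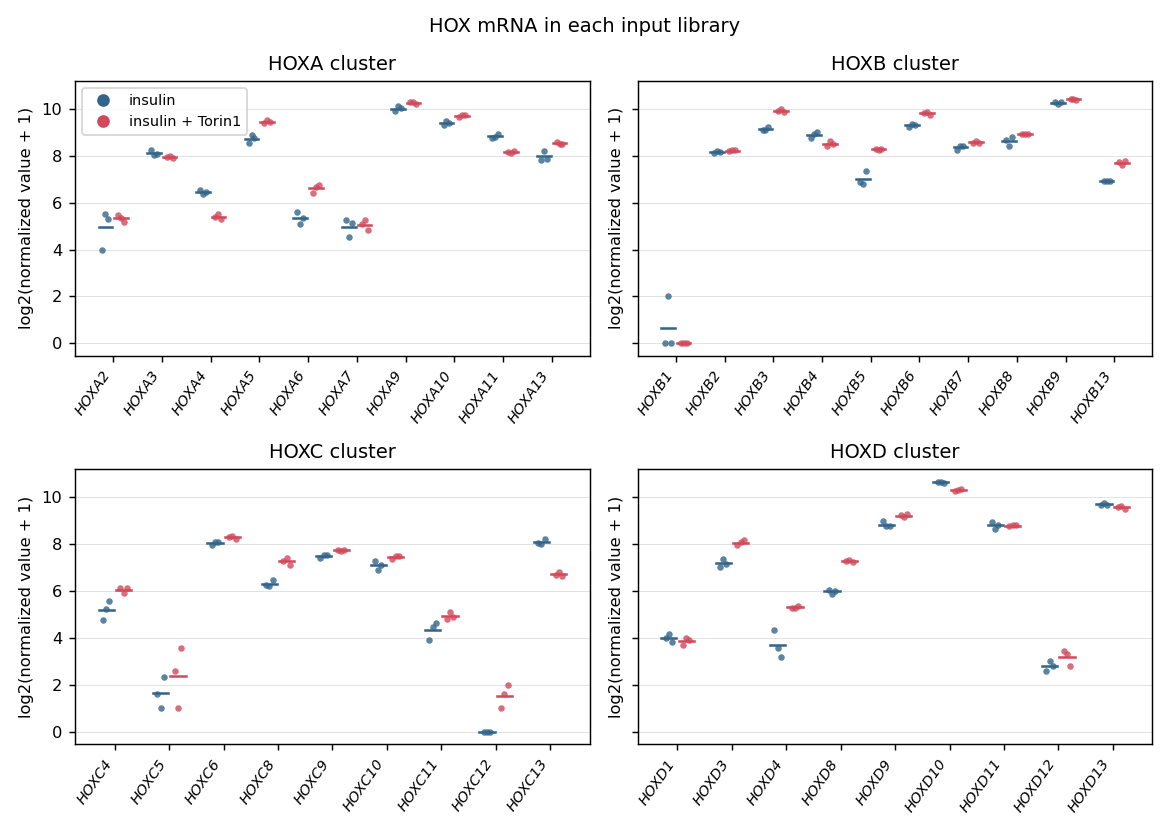
Normalized values of the HOX genes described, by cluster and paralogue number. The y axis is log2(normalized value + 1), each point is 1 input library (blue insulin, red insulin+Torin1, 3 libraries each) and each bar is a group mean. HOXD4, HOXD8, HOXB5 and HOXA6 show the red points well above the blue, HOXC13 and HOXA4 show them below, and HOXB1, HOXC5, HOXC12 and HOXD12 sit at the bottom of their panels.

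In HOXA, 5 genes were higher, 4 were lower and 2 were not called, with a median log2 fold change of 0.26. The rises were in HOXA5, HOXA6, HOXA9, HOXA10 and HOXA13, and the falls included HOXA3, HOXA4 and HOXA11. The direction thus switched between HOXA4 and HOXA5, between HOXA10 and HOXA11 and between HOXA11 and HOXA13. HOXA6, a gene of the trunk, read 48, 33 and 40 units with insulin and 85, 101 and 107 with Torin1, and its log2 fold change was 1.26 ± 0.17 (SE; limma adjusted p = 3.91e-07). HOXA4, its near neighbour, went the other way, from 92, 81 and 87 units to 41, 45 and 39, a log2 fold change of -1.04 ± 0.16 (adjusted p = 2.36e-06). In both genes the highest library of the lower group stayed well under the lowest of the other. HOXA4 lies inside the annotated body of HOXA3, as do HOXA5 and HOXA6, so that the authors' counting of reads could share them between genes. HOXA3 itself changed little, from 308, 263 and 274 to 244, 252 and 238 units (log2 fold change -0.20, adjusted p = 0.0293). Its call was lost when insulin replicate 1 (adjusted p = 0.136), insulin+Torin1 replicate 1 (0.0739) or insulin+Torin1 replicate 3 (0.0818) was left out, and with equal totals (0.404).

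At the tail end of HOXA, HOXA11, which acts in the outgrowth of the kidney duct together with its paralogues, fell from 433, 443 and 492 units to 283, 276 and 297 with Torin1. That is a log2 fold change of -0.67 ± 0.07 (limma adjusted p = 7.85e-09). Both neighbours rose: HOXA10 read 637, 710 and 676 units against 820, 855 and 852 (log2 fold change 0.32, adjusted p = 5.64e-06), and HOXA13 read 226, 298 and 235 against 389, 367 and 361 (0.57, adjusted p = 4.1e-06). HOXA9, known for its part in blood progenitors and leukaemia, read 954, 1106 and 1047 units with insulin and 1248, 1266 and 1191 with Torin1. Its log2 fold change was 0.26 (adjusted p = 6.72e-05), and no insulin library reached a Torin1 library. HOXA5, a regulator of lung and airway development, read 376, 473 and 441 against 688, 735 and 692 units, a log2 fold change of 0.72 that did not pass the 1.5-fold test (adjusted p = 0.0726).

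HOXA2, which patterns the second pharyngeal arch, read 15, 45 and 39 units with insulin and 44, 40 and 35 with Torin1. The interval of its log2 fold change ran from -0.21 to 0.99 (limma adjusted p = 0.208), and insulin replicate 1 lay far below the other libraries. Without insulin replicate 2, HOXA2 was called higher at 0.68 (adjusted p = 0.0463). For HOXA7, at 37, 22 and 34 against 33, 37 and 28 units, the interval ran from -0.39 to 0.58 (adjusted p = 0.701). Neither interval excludes a change of moderate size in either gene.

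HOXB was the cluster with the largest rise in its sum, with 7 genes higher, 1 lower and 1 not called of 9 tested, and a median log2 fold change of 0.30. HOXB5 read 116, 110 and 164 units with insulin and 318, 300 and 312 with Torin1, a log2 fold change of 1.27 ± 0.12 (limma adjusted p = 6.57e-10). HOXB3 read 548, 556 and 611 against 958, 1015 and 950 units (log2 fold change 0.77 ± 0.05, adjusted p = 4.77e-12). Both passed the 1.5-fold test. HOXB4, a gene studied for expanding blood stem cells, lies inside the annotated HOXB3 body and between these neighbours. It fell from 436, 495 and 513 units to 347, 393 and 364 (log2 fold change -0.38, adjusted p = 3.49e-05), the only called fall in the cluster under the values as deposited.

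From HOXB5 to HOXB13 all 6 genes in order were called higher, although HOXB7 was not called under quantile normalization (adjusted p = 0.386). HOXB6 went from 610, 656 and 631 to 911, 941 and 864 units (log2 fold change 0.52, limma adjusted p = 2.97e-09). HOXB13, a gene of the tail bud and the prostate, read 121, 121 and 120 units with insulin and 211, 197 and 219 with Torin1 (0.79, adjusted p = 1.48e-07). The middle members moved less: HOXB7 by 0.21, HOXB8 by 0.30 and HOXB9 by 0.17 on the log2 scale. HOXB9 was at 1245, 1183 and 1255 against 1396, 1395 and 1352 units, a small difference whose groups still did not overlap. HOXB2, at the head end, read 279, 298 and 283 against 296, 302 and 301 units, with an interval of the log2 fold change from -0.09 to 0.22 (adjusted p = 0.418). It was called higher, at 0.19, with equal totals (adjusted p = 0.0214).

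In HOXC, 6 genes were higher and 1 was lower of 7 tested, with a median log2 fold change of 0.36. HOXC13, a gene known from hair and nail formation, fell from 267, 258 and 297 units to 102, 113 and 100 with Torin1. Its log2 fold change of -1.37 ± 0.10 (limma adjusted p = 1.13e-11) was the lowest of all HOX genes, at a fold of 0.386. All other tested HOXC genes were called higher. HOXC8, a trunk gene, read 75, 73 and 87 units against 156, 169 and 136 (log2 fold change 0.96 ± 0.13, adjusted p = 2.99e-07). Its 1.5-fold call was lost without insulin+Torin1 replicate 2 and, like those of HOXA6 and HOXD3, under quantile normalization.

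The other rises in HOXC were smaller or rested on low values. HOXC4 read 26, 37 and 47 units against 68, 59 and 70 (log2 fold change 0.86, limma adjusted p = 0.000458). HOXC6 read 249, 269 and 269 against 316, 322 and 299 (0.25, adjusted p = 0.00436). HOXC4, HOXC5 and HOXC6 share an annotated start and overlap, so reads counted for one could come from another. HOXC9, at 167, 185 and 187 against 217, 207 and 217 units, and HOXC10, at 153, 120 and 139 against 162, 182 and 182, were called higher at 0.25 and 0.36 as deposited. Under quantile normalization the values turned to -0.052 and -0.003 with adjusted p of 0.592 and 0.982. HOXC11 read 14, 21 and 24 against 27, 33 and 29 units (0.60, adjusted p = 0.0345), and its call was lost when any library other than insulin replicates 2 and 3 was left out (adjusted p from 0.0533 to 0.143), with no filter on low values (0.0553) and under quantile normalization (0.223). HOXC6 was not called under quantile normalization (0.583), nor HOXC9 without insulin+Torin1 replicate 1 (0.0594).

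In HOXD, 4 genes were higher, 2 were lower and 2 were not called, with a median log2 fold change of 0.18. The 4 rises lay next to each other from HOXD3 to HOXD9, and the tested genes beyond, HOXD10, HOXD11 and HOXD13, fell or were not called. HOXD12 was under the filter and not tested. HOXD4 went from 19, 11 and 8 units with insulin to 38, 38 and 40 with Torin1, a log2 fold change of 1.62 ± 0.28 (limma adjusted p = 1.62e-05). This was the highest value of any HOX gene with all 6 libraries, but without insulin replicate 3 it was 1.36 and that of HOXB5 was 1.45. It passed the filter on low values with the help of the Torin1 libraries, and in the libraries with recovered depth its values stand for 11 and 8 reads with insulin and 29 with Torin1. HOXD8 rose from 65, 58 and 64 to 153, 160 and 148 units (1.29 ± 0.13, adjusted p = 1.92e-09). HOXD3, whose body overlaps that of HOXD4, rose from 129, 164 and 141 to 247, 271 and 288 units (0.89 ± 0.10, adjusted p = 2.65e-08). In each of these 3 genes every Torin1 library was above every insulin library.

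HOXD9 followed at 502, 438 and 434 against 601, 573 and 616 units (log2 fold change 0.38, limma adjusted p = 8.24e-06). HOXD10, which takes part in limb and spinal cord patterning, fell from 1616, 1624 and 1582 units to 1225, 1273 and 1309, a log2 fold change of -0.34 ± 0.04 (adjusted p = 5.42e-08). HOXD11, the paralogue of HOXA11, read 492, 404 and 450 against 432, 445 and 450 units. The interval of its log2 fold change was -0.16 to 0.13 (adjusted p = 0.834), so a change of more than about that size in either direction lies outside the interval. HOXD13, the gene of the digits, read 809, 860 and 825 against 765, 795 and 734 units, a log2 fold change of -0.12 (adjusted p = 0.0299) that turned to 0.005 with equal totals (adjusted p = 0.931). Its call was also lost without insulin replicate 2, insulin+Torin1 replicate 1 or insulin+Torin1 replicate 3, at adjusted p of 0.107, 0.073 and 0.13. HOXD1 stayed near the filter at 15, 17 and 13 against 12, 15 and 14 units, with an interval from -0.75 to 0.50 (adjusted p = 0.704).

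**Figure D2:**
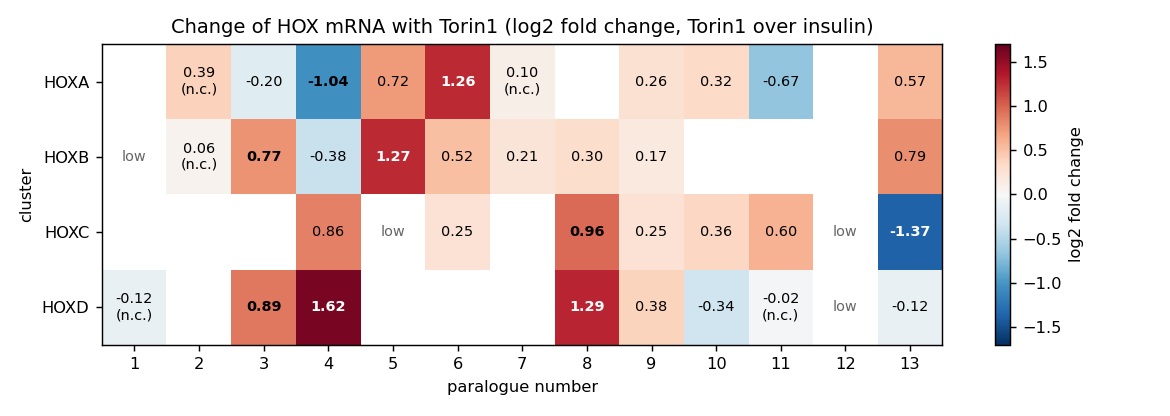
Log2 fold change of each HOX gene, Torin1 against insulin, laid out by cluster (rows) and paralogue number (columns). Colour gives the fold change on the log2(value + 1) scale, bold marks a change beyond 1.5-fold, (n.c.) marks a gene that was not called, "low" a gene under the filter and a blank square no value. The 9 bold values are HOXA4, HOXA6, HOXB3, HOXB5, HOXC8, HOXC13, HOXD3, HOXD4 and HOXD8, and columns 4 and 13 hold both signs.

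The changes can also be read by paralogue number, as counts with no test of the difference between blocks. Over all tested genes 43.4% were higher and 42.5% lower, and 47.5% passed the 1.5-fold test. Of the 14 tested genes numbered 4 to 8, 11 were higher and 2 were lower, and 6 passed the 1.5-fold test. Of the 14 tested genes numbered 9 to 13, 9 were higher and 4 were lower, and 1 passed 1.5-fold. Among the 7 tested genes numbered 1 to 3, 2 were higher, 2 were lower and 3 were not called, with both rises beyond 1.5-fold. The summed values of the block 4 to 8 were 2863 to 3179 units with insulin and 3975 to 4187 with Torin1. Those of the block 9 to 13 were 7641 to 7778 and 7889 to 7988, so the sum moved much less there, although the groups did not overlap.

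Paralogues of 1 number often went different ways. Number 4 held the widest spread, with HOXC4 and HOXD4 higher (log2 fold changes 0.86 and 1.62) and HOXA4 and HOXB4 lower (-1.04 and -0.38). In number 13, HOXA13 and HOXB13 were higher (0.57 and 0.79), HOXC13 was lower (-1.37) and HOXD13 stood at -0.12. The kidney paralogues numbered 11 had HOXA11 lower (-0.67), HOXC11 higher from low values (0.60) and HOXD11 not called (-0.02). By contrast all 4 genes numbered 9 were higher as deposited, by 0.17 to 0.38, and so were all 3 numbered 6 (0.25 to 1.26) and all 3 numbered 8 (0.30 to 1.29). HOXC9 is the member of these that reversed under quantile normalization.

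Neighbours on the chromosome can be set side by side in the same way. Of 31 pairs of adjacent tested HOX genes, both members were called in 23, and in 16 of these (69.6%) they had the same direction. Over 9452 pairs of adjacent called genes in the whole table the share was 54.4%. The runs of HOXB5 to HOXB13 and HOXC4 to HOXC11 (6 genes each) and HOXD3 to HOXD9 (4 genes) gave most of the agreement. The 7 pairs with opposite calls were HOXA4 with HOXA5, HOXA10 with HOXA11, HOXA11 with HOXA13, HOXB3 with HOXB4, HOXB4 with HOXB5, HOXC11 with HOXC13 and HOXD9 with HOXD10. HOX calls leaned upward, with 22 higher and 8 lower, where all tested genes were near balance (43.4% higher and 42.5% lower). Such a lean by itself raises the share of pairs with the same direction, and its part was not tested. HOXC9 and HOXC10, inside the HOXC run, turned to -0.052 and -0.003 under quantile normalization. There HOXC6 and HOXC11 of the same run and HOXB7 of the HOXB run also lost their calls (limma adjusted p = 0.583, 0.223 and 0.386). The agreement within these runs thus depends in part on the scaling. Neighbours share overlapping transcripts in places, and no test was made of the share of agreeing pairs.

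The TALE homeobox genes (PBX, MEIS and PKNOX) encode partners of HOX proteins, which bind DNA together with them. Of 9 tested members 7 were higher, 1 was lower and 1 was not called, with a median log2 fold change of 0.84. The shares over all tested genes were 43.4% higher and 42.5% lower, with a median of 0.02. PBX2 read 332, 307 and 335 units with insulin and 767, 789 and 706 with Torin1 (1.21, limma adjusted p = 1.65e-14). PKNOX2 read 41, 51 and 39 against 122, 136 and 120 units (1.51, adjusted p = 2.71e-09). The exception was PKNOX1, which fell from 1883, 2010 and 1828 to 667, 715 and 741 units (-1.43, adjusted p = 5.51e-18). All 3 Torin1 libraries of PKNOX1 were below all 3 insulin libraries.

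The chromatin regulators known to act on the clusters moved in both directions, as the whole table did, with 43.4% of tested genes higher and 42.5% lower. Of the 11 tested genes of Polycomb repressive complex 2, which methylates histones over silent HOX genes, 5 were higher and 5 were lower (median 0.02). EZH2, its catalytic subunit, fell from 2156, 2247 and 2264 units to 976, 931 and 950 (log2 fold change -1.22, limma adjusted p = 3.43e-18). The accessory subunit gene PHF1 fell by 2.24 on the log2 scale, while MTF2, another accessory subunit, rose by 1.03 and the histone chaperone RBBP7 by 0.67. Of 20 genes of Polycomb repressive complex 1, 5 were higher and 9 lower (median -0.09). SCMH1 rose by 1.21 and the ubiquitin ligase RNF2 by 0.79, while the reader CBX6 stood at -1.59 and PHC3 at -1.15, both called lower.

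Of the 13 tested genes of the MLL complexes and the demethylases that oppose Polycomb, 5 were higher and 7 lower (median log2 fold change -0.13). The table shares for this list and the next were 43.4% higher and 42.5% lower. MEN1, which encodes menin, the partner that MLL needs at HOX genes, rose from 198, 215 and 175 units to 896, 901 and 958 (2.23, limma adjusted p = 2.53e-18). RBBP5, a core subunit, rose by 1.07. The demethylase gene KDM6B fell from 2641, 2388 and 2411 to 347, 370 and 359 units (-2.79, adjusted p = 7.84e-23), and KMT2C was lower at -1.95. CTCF and cohesin, which fold and insulate the clusters, had 4 of 9 higher and 4 lower (median 0.03). Among them were the ring subunits RAD21 at 0.44 and SMC3 at -0.36, with PDS5B at 0.35 and STAG1 at -0.94.

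Retinoic acid signalling had 9 of 15 tested genes higher and 3 lower (median log2 fold change 0.29), against 43.4% and 42.5% of all tested genes. Among members with a mean of at least 50 units the largest rises were those of CYP26B1, which breaks retinoic acid down (26, 30 and 19 against 87, 89 and 89 units, 1.80, limma adjusted p = 7.72e-09), and ALDH1A3, which makes it (60, 62 and 55 against 157, 168 and 191 units, 1.52, adjusted p = 1.38e-10). The receptors RARA and RARB were lower, at -1.19 and -0.87. Of the CDX and ParaHOX genes 2 were tested: CDX2, a regulator of trunk HOX genes, was higher at 0.31 and PDX1 was lower at -0.81. Of the genes that flank the clusters, 13 of 20 tested were higher and 4 lower (median 0.50), beside the same 43.4% and 42.5% of all tested genes. CALCOCO1, beside HOXC, had a log2 fold change of 3.05, from 126, 121 and 145 to 1101, 1053 and 1098 units. HNRNPA1, on the other side of HOXC, whose reads can be shared with its many processed copies, stood at 1.81. SNX11, beside HOXB, was at -1.26 and ATF7, beyond HOXC, at -0.91. The noncoding RNAs of the clusters were not analysed here for their level.

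**Figure D3:**
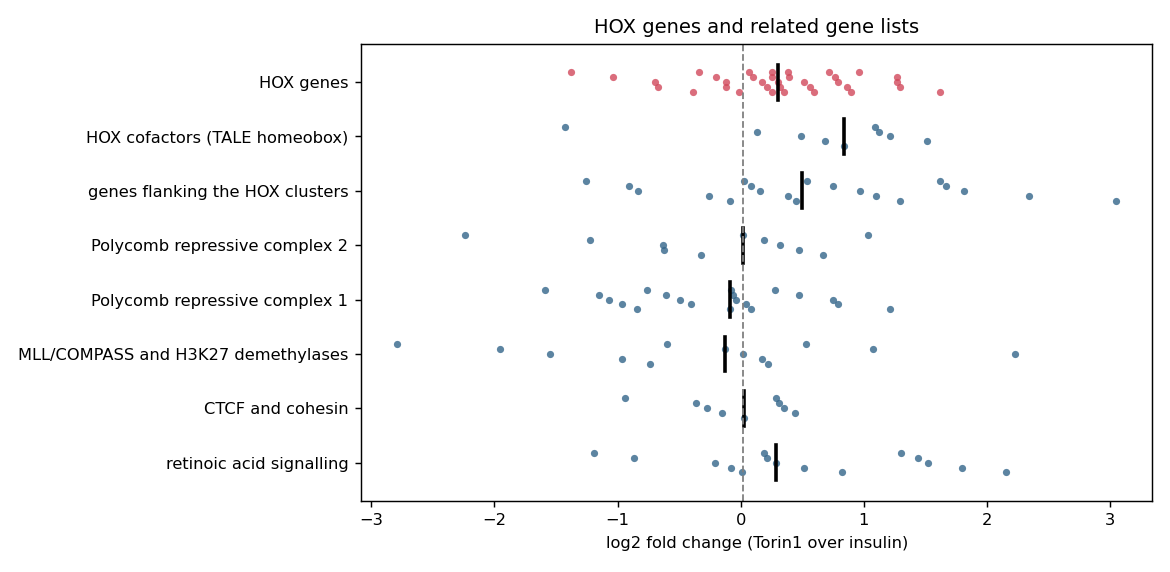
Log2 fold change of every tested gene of the HOX clusters and of 7 related lists, Torin1 against insulin on the log2(value + 1) scale. Each point is 1 gene, the black bar is the median of the list and the dashed line the median of all tested genes (0.02). The HOX points lie between -1.37 and 1.62 with a median of 0.30, and those of the TALE partners have a median of 0.84.

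The labelled cell type was checked on marker lists. Of the markers of embryonic kidney, SALL1 fell from a mean of 697 units to 602 with Torin1. PAX2 had means of 8 and 9.33 units and CDH6 was near 0. Of the 9 tested kidney markers 4 were higher and 3 lower, and its sum was 2396 to 2536 units with insulin and 1949 to 1985 with Torin1. The sum of neuronal markers was 1337 to 1359 against 871 to 908 (1 of 6 higher, 5 lower), that of blood markers 126 to 151 against 47 to 56 with PTPRC, CD3E and LYZ near 0, and that of fibroblast and endothelial markers 193 to 248 against 539 to 552. In that list COL1A1 rose from a mean of 214 units to 497 and COL3A1 from 5 to 34.3, while DCN was at means of 0 and 1. These sums also differed between the conditions, and their part in the HOX differences was not tested.

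The m6A sites in HOX gene bodies came from the authors' lists, 1 per condition, in hg38 coordinates. Each position is listed once, under 1 of the replicates, with the reads over it, the substituted reads and the base sequence around it (5 bases, with the methylated A in the middle). Because a position carries no value in the other replicates, counts and fractions have no replicate error. The insulin and Torin1 fractions of a shared position can come from different replicate numbers. For the single positions printed below both were listed under replicate 1 unless said otherwise. A site was given to the shortest HOX body of the RefSeq annotation (GRCh38.p14) that holds it on the strand of the cluster. Exon boundaries were not used here, so exonic, intronic and UTR sites are not told apart.

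HOX bodies held 264 sites in the insulin list and 254 in the Torin1 list, while the whole lists held 96671 and 63578. Of the 35 tested HOX genes 34 (97.1%) had a site in at least 1 list, against 86.3% of the 12725 tested genes with a position. The median was 7 sites with insulin and 6 with Torin1 per HOX gene, against 3 and 2 over those genes, and 34.3% of HOX genes against 23.1% had 10 or more sites. No site was listed in HOXA2, HOXB1, HOXC12 or HOXD12. By cluster the counts were 71 and 86 in HOXA, 72 and 71 in HOXB, 28 and 27 in HOXC and 93 and 70 in HOXD. Most HOX sites rest on few reads: the median coverage was 11.5 reads with insulin and 23.5 with Torin1 (8 and 12 over all sites), and 53.0% and 56.3% had a single substituted read. The motif core GGAC, the preferred setting of the m6A writer, was at 34.5% and 31.5% of HOX sites and 31.5% and 32.9% of all.

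The replicate under which HOX sites were listed differed between conditions. With insulin 146 were under replicate 1, 99 under replicate 2 and 19 under replicate 3, and with Torin1 234, 4 and 16. The whole lists had 50656, 39670 and 6345 against 56298, 1552 and 5728. Any difference in site number between conditions therefore moves with how the lists were filled, and the part of this in the HOX counts was not tested. Counting only sites under replicate 1 gives 146 against 234.

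Shared positions numbered 140, in 25 HOX genes. That is 53.0% of the insulin sites (exact 95% interval 46.8 to 59.2%) and 55.1% of the Torin1 sites (48.8 to 61.3%), where the shares over all sites were 28.3% and 43.1%. The intervals cover counting error only. By cluster the share of insulin sites was 62.0% in HOXA, 54.2% in HOXB, 25.0% in HOXC and 53.8% in HOXD. HOXC also had the lowest coverage, with a median of 4.5 reads with insulin, which was not tested as a cause. Leaving out the Torin1 sites of replicate 1 leaves 20 Torin1 sites, and 3.41% of the insulin sites are then shared.

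**Figure D4:**
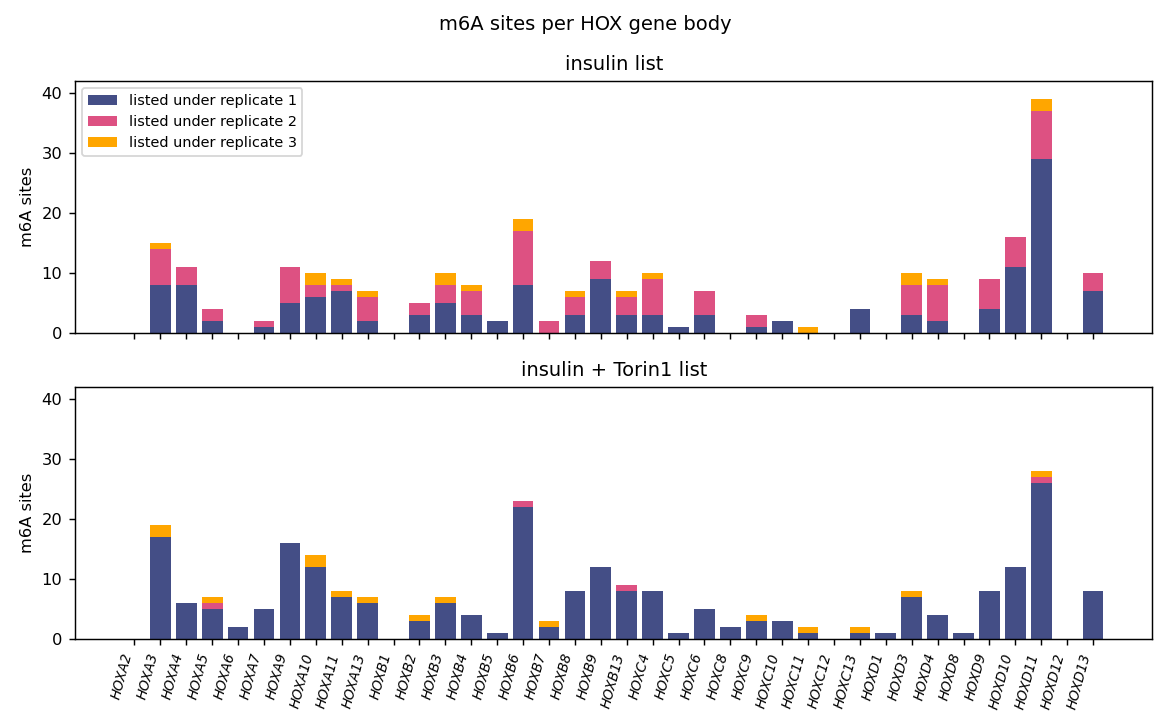
Number of m6A sites per HOX gene described in the insulin list (one panel) and the Torin1 list (the other), stacked by the replicate under which each site was listed. HOXD11 has the tallest bars, 39 and 28 sites, and nearly all Torin1 sites are in the replicate 1 part of the bars.

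With each site given to the innermost body, HOXD11 carried the most sites of any HOX gene, 39 with insulin and 28 with Torin1, of which 26 were at the same positions. Its body is chr2:176107280-176115679 on the plus strand, and as few or fewer sites were counted in 99.3% of tested genes by whole bodies, a count in which HOXA3 had 30 and 34. Under replicate 1 alone it had 29 and 26 sites, and its transcript level did not pass the test (above). The sites fell into 2 stretches of the body. Between 1 and 3 kb from the start there were 12 with insulin and 10 with Torin1, between 3 and 4 kb there were 1 and 0, and between 4 and 8 kb 25 and 16. The deepest HOX site of either list lay in the former: chr2:176109325 (GGACT) had 16 of 155 reads substituted with insulin (10.3%) and 9 of 417 with Torin1 (2.16%). At chr2:176109105 (AGACC), nearby, it was 11 of 68 (16.2%) against 5 of 188 (2.66%). At chr2:176108965 (GAACT) it was 7 of 39 (17.9%) against 9 of 63 (14.3%). In the further stretch, chr2:176112383 (TGACT) had 5 of 39 (12.8%) against 4 of 49 (8.16%), and chr2:176112773 (GGACT) had 3 of 36 (8.33%) against 4 of 37 (10.8%). Thus the fraction was lower with Torin1 at 4 of these 5 sites, with more reads over each site in the Torin1 list.

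**Figure D5:**
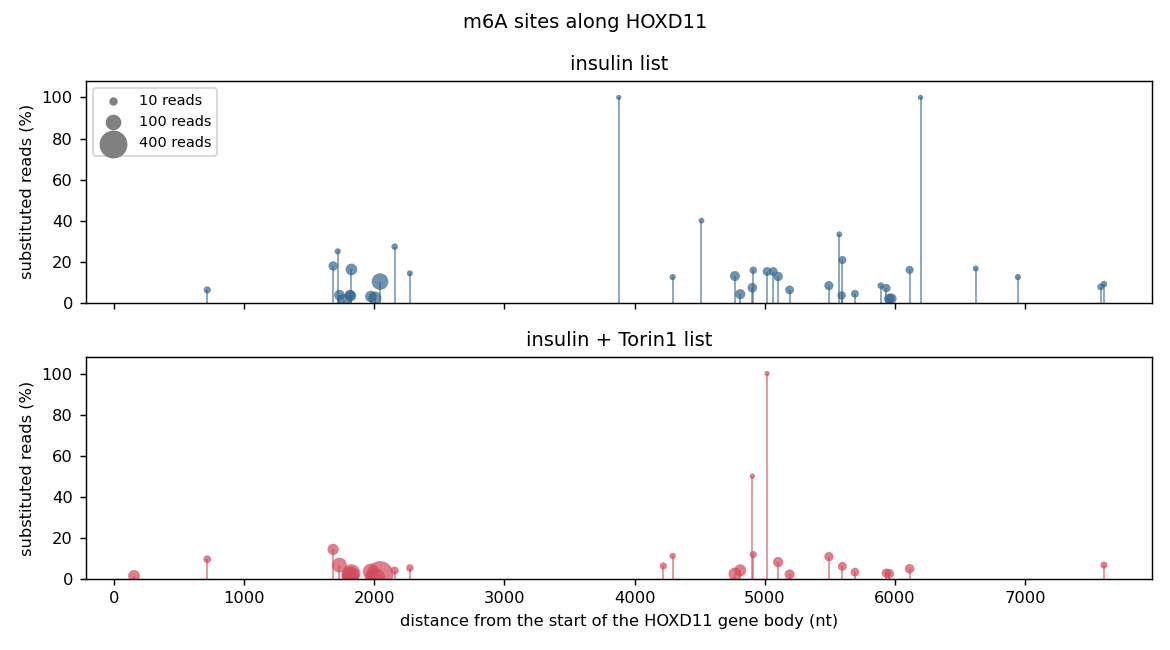
Percent of reads substituted at each listed m6A site of HOXD11 against the distance in nt from the start of its annotated body, for the insulin and Torin1 lists. Point area grows with the reads over the site, and sites with 1 or 2 reads can stand at 50 or 100%. The large points lie near 2000 nt, where the deepest site has 10.3% with insulin and 2.16% with Torin1.

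HOXB6 came next, with 19 sites with insulin and 23 with Torin1 in chr17:48595751-48604986 (minus strand), 15 of them at the same positions. In the last kilobase or so of the body, chr17:48596005 (AGACT) had 4 of 86 reads substituted with insulin (4.65%) and 5 of 129 with Torin1 (3.88%). There chr17:48596175 (GAACT) had 4 of 74 (5.41%) against 9 of 96 (9.38%), and chr17:48596425 (AAACA) had 3 of 13 (23.1%) against 3 of 53 (5.66%). At all of these named sites the insulin value was listed under replicate 2 and the Torin1 value under replicate 1. Further towards the start, chr17:48598002 (GGACA) had 5 of 55 (9.09%) against 13 of 172 (7.56%) and chr17:48604716 (GGACA) had 6 of 29 (20.7%) against 7 of 73 (9.59%). The noncoding HOXB-AS3 lies across HOXB6 on the other strand, where the HOXB6 body held 1 and 2 sites. HOXB8, a smaller neighbour with 7 and 8 sites, had chr17:48614613 (GGACC) at 3 of 40 (7.5%) against 13 of 180 (7.22%), nearly level. At chr17:48613311 (AGACA) it had 5 of 13 (38.5%) against 3 of 15 (20.0%), and at chr17:48613382 (GGACT) 3 of 26 (11.5%) against 3 of 74 (4.05%). At chr17:48613311 and chr17:48613382 the insulin value was under replicate 2 and the Torin1 value under replicate 1.

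HOXD10 had 16 sites with insulin and 12 with Torin1 in chr2:176116778-176119937 (plus strand), of which 7 were shared. Of these, 11 and 7 lay within the first 600 nt of the body. With insulin 9 of its sites had 3 or more substituted reads, and with Torin1 none had. Summed over its listed sites, 44 of 646 reads were substituted with insulin and 15 of 497 with Torin1. These sums cover partly different positions, since a position enters only where it was listed, so they do not compare like sites. Of the insulin sites 11 were listed under replicate 1 and 5 under replicate 2, while all 12 Torin1 sites were under replicate 1. The gene's transcript level fell in the same comparison, from a mean of 1607 to 1269 units. HOXA9 had 11 sites with insulin and 16 with Torin1, and 9 were shared. At chr7:27163550 (GAACT) it had 7 of 23 reads (30.4%) against 3 of 67 (4.48%).

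HOXA3 had 15 and 19 sites once those in the bodies of HOXA4, HOXA5 and HOXA6 were given to the inner genes, or 30 and 34 in its whole body of 45574 nt. Several lay between HOXA5 and HOXA6, such as chr7:27143776 (GGACA) with 3 of 3 reads substituted with insulin and 6 of 15 with Torin1 (40.0%). There the insulin value was under replicate 2 and the Torin1 value under replicate 1. HOXA4, which fell, had 11 and 6 sites in chr7:27128525-27130757 (minus strand). Its deepest, chr7:27128907 (GGACA), had 7 of 31 reads (22.6%) against 3 of 52 (5.77%). HOXA10 had 10 and 14 sites: chr7:27172002 (GGACA) had 4 of 50 (8.0%) against 6 of 128 (4.69%), chr7:27173746 (GAACT) 3 of 15 (20.0%) against 3 of 44 (6.82%), and chr7:27171339 (GGACA) 3 of 15 (20.0%) against 4 of 13 (30.8%). At chr7:27171339 the insulin value was under replicate 2 and the Torin1 value under replicate 1.

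The remaining sites with at least 3 substituted reads in both lists were 1 each in HOXB9, HOXC6 and HOXD4. HOXB9 had chr17:48621984 (AGACT) at 4 of 22 (18.2%) against 3 of 60 (5.0%). HOXC6 had chr12:54030248 (GAACT) at 3 of 16 (18.8%) against 3 of 43 (6.98%). HOXD4 had chr2:176152678 (GAACT) at 4 of 7 (57.1%, under replicate 2) against 4 of 45 (8.89%, under replicate 1). Its 4 Torin1 sites had a median of 79.5 reads against 6 over its 9 insulin sites. Of the 22 sites of this kind 19 had the higher fraction with insulin, at median coverages of 30 reads with insulin and 61.5 with Torin1. The same minimum of substituted reads asks for a higher fraction where coverage is lower. This choice of sites thus itself leans towards higher fractions with insulin, and the count is no separate sign of direction.

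Over all 140 shared HOX sites the substituted fraction was higher with insulin at 105 (75%), lower at 32 and equal at 3, where it was higher at 64.9% of all 27378 shared sites. The median fraction was 11.1% with insulin and 5.32% with Torin1. At the same positions the median coverage was 20 reads with insulin and 41 with Torin1 (17 and 27 over all shared sites). Where a site has 1 substituted read its fraction is set by the coverage alone, and the part of coverage in this difference was not tested. Among the 83 shared sites listed under replicate 1 in both, 64 were higher with insulin, at median coverages of 24 and 46.

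Set beside expression, the 22 HOX genes with higher transcript levels had 142 sites with insulin and 154 with Torin1: 13 genes had more sites with Torin1, 7 had more with insulin and 2 had the same number. The 8 genes with lower levels had 75 and 61, with 1, 6 and 1 genes in those classes. The 5 genes that were not called had 46 and 38. Counted by whole bodies and whatever their call, 16 of the 35 tested HOX genes had more sites with Torin1, 15 more with insulin and 4 the same. In that count 3226 of all tested genes with a position had more with Torin1 and 6500 more with insulin. No such count was split by call over all genes. Under replicate 1 alone the counts were 63 and 142 in the higher genes, 49 and 56 in the lower and 33 and 35 in those not called. The part of transcript level in the number of listed sites was not tested.

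Sites were found along the bodies and not only near the annotated end. Of the sites in exactly 1 HOX body, 26.4% with insulin and 26.7% with Torin1 were within 1000 nt of the annotated end, and 13.2% and 12% within 500 nt of the start. These shares were not set against body length, which ran from 1677 nt (HOXD4) to 45574 nt (HOXA3). A lean towards either end was therefore not tested. On the strand opposite to the cluster, HOXA bodies held 18 and 17 sites, HOXB 2 and 2, HOXC 0 and 1 and HOXD 4 and 5. HOXA10 had 4 and 9 of these. The noncoding transcripts read from that strand of HOXA had their own sites, with 7 in each list in the body of HOXA11-AS, 3 and 5 in HOXA10-AS and 4 and 2 in HOTAIRM1. In HOXC, the body of HOTAIR held 0 and 1.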

How the data were processed

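Input RNA-seq and miCLIP of 12 samples in 4 groups of 3 were used, with groups taken from the labels. The submitters' processing notes name hg38 and the tools STAR, DESeq, DESeq2 1.22.2 and BWA 0.7.1, with no role for any. The expression values that the authors deposited are a score, normalized between libraries and rounded by the authors before deposit, as the skipped whole numbers in the file show. No count test was run on them. No value column belonged to a sample outside the series. The m6A lists that the authors deposited give reads and substituted reads per position, and the deposited fraction of a site is the latter over the former, as the file's numbers show.

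Differences were tested with limma 3.58.1 in R 4.3.3, with a trend, on log2(value + 1), over genes with at least 10 units in at least 3 libraries, two-sided, with Benjamini-Hochberg adjustment over 13842 genes at 0.05, and with limma's treat at 1.5-fold. The procedure was tested on simulated data. Sites were assigned, and shares given exact binomial intervals, in Python 3.11.15 with pandas 2.3.3 and scipy 1.17.1. The strand of a cluster is that of its entries in the RefSeq table of start regions. The HOX genes and the related lists were chosen with earlier results of these data known. All HOX genes are in the counts, and some genes are not reported here by name. Of each related list the 2 called rises and 2 called falls of largest size with a mean of at least 50 units are named, along with the 5 HOX genes with most sites. The rule also took in every HOX site with 3 or more substituted reads. These were too many to list, so those with 3 or more in both lists are printed, a choice made after the lists were seen, as were PDX1 and the markers COL3A1, PAX2, CDH6, PTPRC, CD3E, LYZ and DCN. Alternatives were other scalings, pseudocounts of 0.5 and 5, other filters, no trend, a replicate block and leaving out each library, and for sites other minimums of reads. Protein sequences, exon boundaries and miRNAs were not used here.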

Additional observations from a re-analysis of the deposited data

How the results depend on the processing

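The HOX calls were 22 higher and 8 lower as deposited, and stayed within 1.5 times of these counts under each alternative run. Beyond 1.5-fold, quantile normalization gave 4 higher and 4 lower against 7 and 2, and scaling to equal totals left 1 lower, HOXC13. Leaving out each library in turn gave 20 to 23 higher, 6 to 8 lower, 6 to 8 higher beyond 1.5-fold and 2 lower beyond it. Single genes reversed at HOXD13 (0.005, equal totals), HOXC9 (-0.052, quantile) and HOXC10 (-0.003, quantile); the cause was not tested. HOXD13 also lost its call without the trend (adjusted p = 0.0589) and under quantile normalization (0.543). The replicate block gave 22 higher and 8 lower, with 8 and 2 beyond 1.5-fold, and changed no call at 0.05 among the 35 genes. Same-numbered libraries did not deviate together (correlations -0.023, 0.01 and -0.004), so the numbers were not taken as pairs.

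For m6A, asking for 3 or more substituted reads left 66 insulin and 60 Torin1 sites in HOX bodies. The shared shares were then 33.3% and 36.7%, and the cause of this fall was not tested. With 10 or more reads over a site 146 insulin sites remained, with shares of 64.4% and 48.5%. Under replicate 1 alone there were 146 insulin sites, and 35.5% of the Torin1 sites were shared. Leaving out the sites of each replicate gave 118 to 264 insulin sites, 20 to 254 Torin1 sites, and shares of 3.41 to 58.2% and 20.1 to 55.6%. At the coverage of most sites, with a median of 11.5 and 23.5 reads, small differences in fraction are not detectable.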
